A study of Mus musculus with 12 samples.

Results

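The cytochrome P450 and glutathione transferase genes are 118 of the 55679 genes in the deposited gene table. They were chosen by name alone: Cyp followed by a family number, letters and a number, or Gst followed by a class letter (a, k, m, o, p, t or z) and a number, with names holding -ps left out. This gave 95 P450 genes and 23 glutathione transferase genes. No measured value entered the name rule, but the genes were chosen with earlier results of these data known. RNA had been taken from the whole lung and the whole heart of 6 male 129S6/SvEvTac mice aged 9 to 13 weeks, 3 wild type (WT) and 3 Adam19 knockout (KO). The KO mice were homozygous for Adam19-tdTomato, an allele in which a tdTomato construct replaces exons 6 and 7 of Adam19, a gene for a membrane-bound metalloprotease whose human variants are associated with lung function. The allele is carried in the germ line, so all tissues of a KO mouse hold it, and no group received a treatment. Each mouse gave 1 lung and 1 heart library, 12 in all, so that within a genotype a replicate number stands for one mouse in lung and heart. The WT and KO mice have different number prefixes in their identifiers, so a litter or cage that such a prefix might mark cannot be told apart from genotype.

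P450 enzymes are haem proteins that insert oxygen into lipophilic substrates with electrons passed on by P450 reductase. Families 1 to 3 act mostly on foreign compounds, family 4 mostly on fatty acids and eicosanoids, and the higher families on sterols, bile acids, vitamin D and retinoids. Glutathione transferases join glutathione to electrophiles, including products of P450 reactions, and are grouped in classes named alpha, kappa, mu, omega, pi, theta and zeta. In the mouse airway, club cells are known for high P450 content. Club cell toxicants such as naphthalene are activated there by the enzyme that Cyp2f2 encodes.

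Total estimated counts ran from 17674788 to 35862932 a library. The WT hearts had 33906290, 20381284 and 18392292, and the KO hearts 31784742, 35862932 and 35529903. Gene values are on the log2 scale, as log2(1 + estimated count) with a constant added for each library by the authors, and 1 unit is a doubling. Adam19 was at 9.12 to 9.41 in the WT lungs and 3.21 to 4.44 in the KO lungs, and at 9.17 to 10.27 in the WT hearts and 6.01 to 6.67 in the KO hearts, so no library went against its genotype label. The tissue labels held for their defining markers: all 6 heart muscle genes tested were lower in lung, and all 5 club cell and all 6 alveolar type 2 cell genes were higher in lung, in both genotypes. Several libraries stood apart in RNA of other cells. Heart KO replicate 1 had the most club cell RNA of the hearts (summed level of the 5 markers 11.19, against 5.22 to 8.47 in the WT hearts). Lung WT replicate 3 had the most hepatocyte RNA of the lungs (summed level of 6 markers 6.2, with Alb at 5.43, against 2.57 to 4.14 in the other lungs). The total numbers of members called in each comparison were also taken with each of these libraries left out. Counts by family, class, cluster, promoter and gene list were taken with all libraries only. In bulk tissue, fewer cells of a type and less RNA per cell cannot be told apart.

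Of the 118 genes, 27 were listed at 0 in all 12 libraries and another 36 never reached 3.46, which is about 10 estimated counts. The silent genes were mostly P450s of families 2 (16 of 50) and 3 (4 of 7), while no glutathione transferase gene was at 0 throughout. Between 47 and 56 members had a value above 0 in each heart, and 62 to 67 in each lung except replicate 3 of the WT lungs, which had 77. That lung alone held 9 of them, among them Cyp3a11 at 2.8 and Cyp2c29 at 2.64, whose main site is the liver. Its hepatocyte markers moved in the same direction, and their part in these low values was not tested.

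The genes lie in clusters of related copies, and the clusters differed in how much of them was in use. With a gap of at most 500 kb between neighbours, 86 members fell into 12 clusters of 3 or more. In the Cyp2c cluster (chr19:38995462-40175777 in GRCm39) 8 of 14 members were at 0 and no member reached 3.46. In the Cyp3a cluster (chr5:145282089-146050097) 4 of 6 were at 0 and none reached it. The Cyp2 cluster on chromosome 7 (chr7:25501895-26858093) was the opposite case. It holds Cyp2s1, Cyp2b10, Cyp2a5 and Cyp2f2 among 13 genes, of which 8 reached 3.46 and 12 had their highest lung value above their highest heart value. All 7 mu class genes (chr3:107803137-107952210) reached it, as did the 3 pi class genes (chr19:4085405-4109569). Since paralogs share sequence by descent, members of a cluster are not independent of each other.

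**Figure D1:**
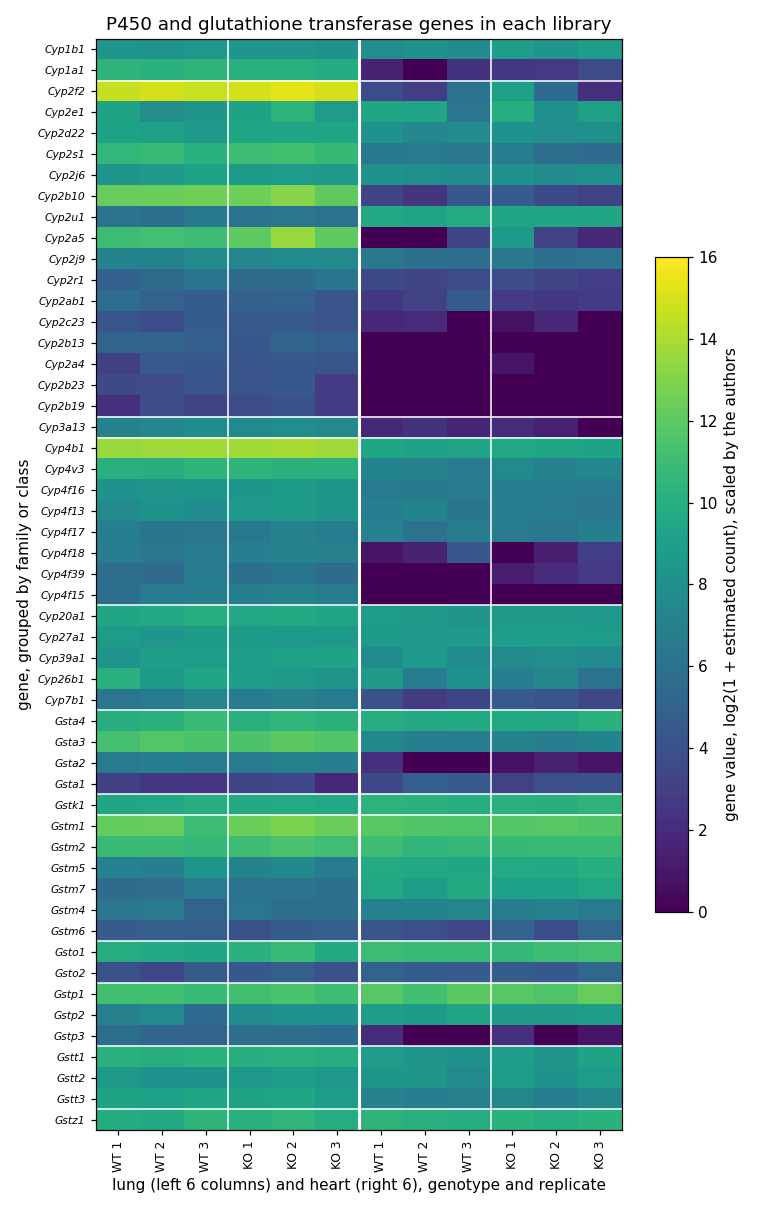
Gene values (colour, log2 scale) of the 52 P450 and glutathione transferase genes tested in at least 1 of the 4 pairwise comparisons, in the 6 lung libraries (left) and the 6 heart libraries (right); white lines part the groups and the families. Cyp2f2 and Cyp4b1 are the brightest rows in lung, and Cyp2u1, Gstm5 and Gstm7 are brighter in heart.

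Levels were compared between genes as scaled estimated counts per kb of transcript. In the WT lungs Cyp2f2 led all 118 genes at 15006 ± 2070 (SD, n = 3) per kb, which was 51.3% of the summed P450 level. Cyp4b1, a fatty acid omega-hydroxylase of family 4 that also activates furans and aromatic amines, followed at 6862 ± 476. Together with Cyp2b10 at 2849 ± 303 these genes made up 83.3% to 85.9% of the P450 level in each WT lung. The transferase level was spread more evenly, with Gstm1 at 2884 ± 1254, Gstp1 at 2647 ± 484, Gsta3 at 2099 ± 312 and Gstm2 at 1637 ± 147 per kb. Cyp2a5, a coumarin 7-hydroxylase, stood at 1045 ± 97.7. The next members were Gstk1, Gstt1, Gsta4 and Gstz1, between 571 and 829 per kb.

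In the WT hearts the order was different, and transferases took the first 10 places. Gstp1 led at 4225 ± 1061 per kb, ahead of Gstm1 at 2462 ± 268 and Gstm2 at 1618 ± 316. Gsto1 (1192 ± 116) and Gstk1 (1162 ± 160) followed, both below Gstm2 in each WT heart. The SDs of Gsto1 and Gstk1 left the order between them open. The highest P450 was Cyp4b1 at 345 ± 22.9. Cyp2e1, the ethanol-inducible form, followed at 226 ± 164, with Cyp27a1 at 214 ± 13.8 and Cyp2u1 at 195 ± 34.5, and the SD of Cyp2e1 left their order open. The summed P450 level was 1.92 to 2.37 times the summed transferase level in the 3 WT lungs and 0.11 to 0.145 times in the 3 WT hearts. In KO mice these ratios were 2.1 to 2.27 in lung and 0.104 to 0.188 in heart, the highest of them in heart KO replicate 1. The summed transferase level itself overlapped between the tissues, at 12191 to 20439 per kb in the lungs and 12529 to 17465 in the hearts.

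The lung and heart libraries of WT mice were compared gene by gene over 16636 genes, 50 of them members, and the same was done in KO mice over 16802 genes, 49 of them members. A gene was called where the adjusted p was under 0.05, the fold change at least 1.5 and the higher group mean at least 6. In WT mice 22 members were higher in lung, against 29.7% of all genes tested, and 6 were lower, against 20.5%. KO mice gave 24 higher, against 30.9%, and 7 lower, against 22.3%. All 22 and all 6 called in WT mice were also called in the same direction in KO mice, which share no library with them. Without lung WT replicate 3 the WT counts were 20 and 7, and without heart KO replicate 1 the KO counts were 24 and 7. The median difference over the members was 1.27 (log2, lung minus heart) in WT and 1.40 in KO mice, beside 0.30 and 0.28 over all genes tested.

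Among the members tested, the excess on the lung side lay with the P450s. Of 30 P450s tested in WT mice, 18 were higher in lung and 1 was lower, and in KO mice 19 and 1. Of 20 transferases tested in WT mice, 4 were higher and 5 lower, and of 19 in KO mice, 5 and 6. Median differences for P450s were 1.85 in WT and 2.55 in KO mice, with genes listed at 0 in heart entered at their lower bound. Without these bounds the P450 medians were 2.498 in WT and 2.55 in KO mice, so the gap between genotypes came from the bounds. For transferases the medians were −0.06 in WT and 0.05 in KO mice. In each genotype family 4 had 6 of 8 tested members higher in lung, and family 2 had 7 of 14 higher and 1 lower. By class, alpha and theta transferases were higher in lung (2 of each) and mu (3), omega (1) and pi (1) were lower in WT mice. Of the 50 members tested in WT mice, 10 reached the level required for testing in lung only and 1 in heart only. In KO mice 10 of 49 did so in lung only and 0 in heart only. With at least 10 estimated counts required in every library, 13 of 31 members were higher and 7 lower in WT mice. Over all genes tested this way, 4176 of 13242 were higher and 3181 lower. In KO mice 15 of 33 members were higher and 7 lower, beside 4418 higher and 3470 lower of 13516 genes. The size of the lung excess thus depends on this choice.

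The largest differences in WT mice were those of Cyp2f2 and Cyp2a5, in the cluster on chromosome 7. Cyp2f2 was at 14.61, 14.96 and 14.64 in WT lungs and 3.69, 2.92 and 6.03 in the WT hearts, a difference of 10.52 ± 0.67 (SE, adjusted p = 4.5e-06). In KO mice it was at 15.00, 15.37 and 14.96 against 9.01, 5.56 and 2.15, a difference of 9.54 ± 1.40 (adjusted p = 0.00035). The lungs were far above every heart, but the hearts spread widely. Without heart KO replicate 1 the KO difference was 11.25.

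Cyp2a5 was at 10.99, 11.21 and 10.98 in the WT lungs. It was listed at 0 in WT hearts 1 and 2 and at 3.32 in the third (difference 9.95 ± 0.82, adjusted p = 1.7e-05). With hearts at or near 0 the size depends on the setting, and the WT difference was 7.44 to 11.06 over the alternatives described below. Its KO hearts held 8.66, 3.17 and 1.78 (difference 8.0 ± 1.53, adjusted p = 0.0016), and without heart KO replicate 1 the difference was 10.06. Cyp2b10, an enzyme inducible by phenobarbital in liver, was at 12.26, 12.42 and 12.57 in WT lungs and 3.35, 2.39 and 4.38 in the WT hearts. Its difference was 9.04 ± 0.45 in WT (adjusted p = 1.2e-06) and 8.75 ± 0.40 in KO mice (adjusted p = 5.4e-07). Cyp2s1, the fourth called gene of the cluster, differed by 4.02 ± 0.22 and 4.95 ± 0.30.

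The small amounts of Cyp2f2 and Cyp2a5 in the hearts moved with several club cell markers. In heart KO replicate 1, where Cyp2f2 stood at 9.01, the secretory protein genes Scgb1a1, Scgb3a2 and Bpifa1 stood at 10.2, 8.4 and 9.0. In heart KO replicate 3, where Cyp2f2 stood at 2.15, they stood at 5.1, 1.7 and 0. WT heart 3 had the highest Cyp2f2, Scgb1a1 (8.3) and Scgb3a2 (4.7) of the WT hearts. Bpifa1 was at 0 there, against 1.1 and 2.4 in WT hearts 1 and 2, and the marker Scgb3a1 was at 2.9 in WT hearts 1 and 3. The alveolar type 2 cell marker Sftpc was also highest in WT heart 3, at 7.7 against 5.5 and 4.8. In the KO hearts Sftpc was at 6.9, 7.5 and 4.8, highest in replicate 2 and not in replicate 1. Sftpa1, another marker of these cells, was highest in KO heart 1, at 7.7 against 6.6 and 3.5. The part of airway or other lung RNA in these heart values was not tested.

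**Figure D2:**
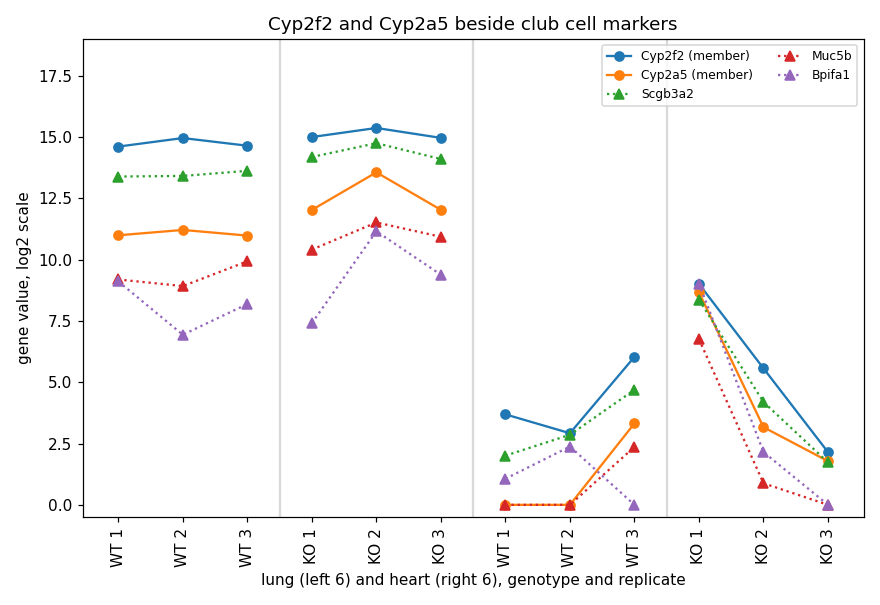
Gene values (log2 scale) of the members Cyp2f2 and Cyp2a5 (circles, solid lines) and of the club cell markers Scgb3a2, Muc5b and Bpifa1 (triangles, dotted lines) in each library; lines only join the libraries of a group and replicates have no order. All of these genes peak among the hearts in KO replicate 1, and all are highest among the lungs in KO replicate 2. The marker Scgb1a1, not drawn, was highest among the lungs in KO replicate 3, at 18.41.

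Cyp1a1, the classic target of the aryl hydrocarbon receptor, was at 10.41, 10.25 and 10.42 in WT lungs and 1.48, 0 and 2.33 in the WT hearts (difference 9.09 ± 0.55, adjusted p = 3.1e-06). Over the alternatives this WT difference was 6.8 to 9.62. KO mice had 10.18, 10.19 and 9.82 in lung and 2.62, 2.67 and 3.64 in heart (difference 7.08 ± 0.31, adjusted p = 3.8e-07). The other family 1 genes behaved otherwise. Cyp1b1 stood between 7.70 and 8.94 in every library and was called in neither genotype, and Cyp1a2, an enzyme of liver, was above 0 in 1 library only, at 1.09.

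Family 4 was led by Cyp4b1, the member with the smallest p of the tissue comparison in both genotypes. It was at 13.52, 13.67 and 13.71 in WT lungs and 9.41, 9.22 and 9.33 in the WT hearts, a difference of 4.31 ± 0.14 (adjusted p = 2.6e-07), and in KO mice the difference was 4.32 ± 0.12. Cyp4f15 stood at 5.79, 6.61 and 6.85 in WT lung, while all 6 hearts listed it at 0, so it was at least 15.1-fold higher in WT lung and at least 31.5-fold higher in KO lung, with 3 estimated counts a library as the floor. Cyp4f18, a leukotriene B4 hydroxylase of neutrophils, was at 6.35 to 7.17 in the 6 lungs and 0 to 4.32 in the 6 hearts. Cyp4f17 overlapped between the tissues, at 6.19 to 7.10 in lung and 6.0 to 7.10 in heart.

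Among the remaining P450s, Cyp3a13 was the sole member of family 3 that could be tested, at 7.05, 7.43 and 7.75 in the WT lungs against 1.76, 2.37 and 1.63 in the WT hearts (difference 5.49 ± 0.38, adjusted p = 6.2e-06). Its WT difference was 3.81 to 5.72 over the alternatives. Of the higher families, Cyp7b1, an oxysterol 7-alpha-hydroxylase, differed by 3.39 ± 0.44 and the retinoic acid hydroxylase gene Cyp26b1 by 1.58 ± 0.51 in WT mice. The Cyp26b1 call in WT mice was lost without any of lung WT replicate 1, lung WT replicate 3 and heart WT replicate 2 (adjusted p = 0.097, 0.077 and 0.066). Cyp27a1, the mitochondrial sterol 27-hydroxylase, was at 8.37 to 8.81 in the WT lungs and 8.54 to 8.74 in the WT hearts, a difference of −0.02 ± 0.19 (adjusted p = 0.93).

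One P450 ran the other way. Cyp2u1, a long-chain fatty acid hydroxylase, was at 6.12, 5.86 and 6.48 in WT lungs and 9.63, 9.34 and 9.83 in the WT hearts (difference −3.45 ± 0.24, adjusted p = 7.6e-06). The KO lungs held 6.04, 6.33 and 5.99 and the KO hearts 9.49, 9.49 and 9.38 (difference −3.33 ± 0.15, adjusted p = 5.5e-07). The tissues did not come near each other in either genotype.

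Among transferases the alpha class gave the largest lung excess. Gsta3 was at 11.30, 11.70 and 11.48 in WT lungs and 7.46, 6.88 and 6.70 in the WT hearts, a difference of 4.48 ± 0.23 (adjusted p = 1.6e-06), and in KO mice it was 4.64 ± 0.16. Gsta2 differed by 5.92 ± 0.63 in WT mice, at 6.53 to 6.89 in lung and 2.25, 0 and 0 in heart. It shares near-identical sequence with Gsta1 and Gsta5, and summed over the 3 copies the difference was 2.26 in WT and 3.10 in KO mice, since Gsta1 was higher in the WT hearts (3.53, 4.81 and 4.57) than in the WT lungs (3.04, 2.61 and 2.51). Gsta4, which acts on 4-hydroxynonenal, was at 9.96, 10.23 and 10.79 in WT lungs and 9.95, 9.63 and 9.73 in the WT hearts, and did not pass in either genotype (differences 0.56 ± 0.23 and 0.48 ± 0.19). The theta class genes Gstt1 and Gstt3 differed by 1.77 ± 0.23 and 2.25 ± 0.19, while Gstt2 overlapped between the tissues.

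The mu class split by gene. Gstm7 was at 5.65, 5.72 and 6.60 in WT lungs and 9.51, 9.0 and 9.70 in the WT hearts (difference −3.41 ± 0.32, adjusted p = 3.7e-05). Gstm5 was at 7.09, 6.83 and 8.27 against 9.76, 9.68 and 9.45 (−2.23 ± 0.36), and Gstm4 at 6.33, 6.51 and 5.16 against 7.02, 7.22 and 7.30 (−1.18 ± 0.38, adjusted p = 0.025). The Gstm4 call in WT mice was lost without any 1 of the WT hearts (adjusted p = 0.051 to 0.068). Both lower genes with the larger differences lie next to each other at one end of the cluster. Gstm2 was at 10.64 to 10.90 in the WT lungs and 10.54 to 11.06 in the WT hearts. Gstm1 was at 12.25, 12.27 and 10.95 in the WT lungs against 11.88, 11.63 and 11.62 in the WT hearts. Its difference was 0.11 ± 0.34 (adjusted p = 0.78), and 0.55 (adjusted p = 0.013) without lung WT replicate 3, the library with the lowest Gstm1. In KO mice it passed, at 12.43, 12.83 and 12.40 against 11.78, 11.85 and 11.65 (0.79 ± 0.14, adjusted p = 0.0011).

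In the pi class, Gstp1 was at 11.18, 11.17 and 10.80 in WT lungs and 11.83, 11.15 and 11.95 in the WT hearts, a difference of −0.59 ± 0.24 (adjusted p = 0.056) that passed in KO mice (−0.67 ± 0.19, adjusted p = 0.012). Gstp2 was at 6.96, 7.67 and 5.57 against 8.89, 8.74 and 9.33 (−2.25 ± 0.48, adjusted p = 0.0038) in WT mice and differed by −0.78 ± 0.17 in KO mice. Both genes are 97.9% identical over 707 nucleotides of transcript, so their reads may be split unevenly, and the summed copies differed by −0.73 in WT and −0.68 in KO mice. Gstp3 went the other way, at 5.75, 5.19 and 5.08 in the lungs of WT mice against 2.11, 0 and 0 in their hearts. Its difference was 4.64 ± 0.63 in WT (adjusted p = 0.00031) and 4.67 ± 0.53 in KO mice (adjusted p = 7.8e-05), but its lung means were under 6, so it was not among the called genes. Gsto1, an omega class enzyme with dehydroascorbate reductase activity, was at 9.92, 9.69 and 9.41 in WT lungs and 10.96, 10.75 and 10.86 in the WT hearts (−1.18 ± 0.17, adjusted p = 0.00045). Its main coding transcript held 69.6% or more of the gene's estimated counts in the hearts but 6.5% to 88.8% in the lungs, the lowest in lung KO replicate 2.

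**Figure D3:**
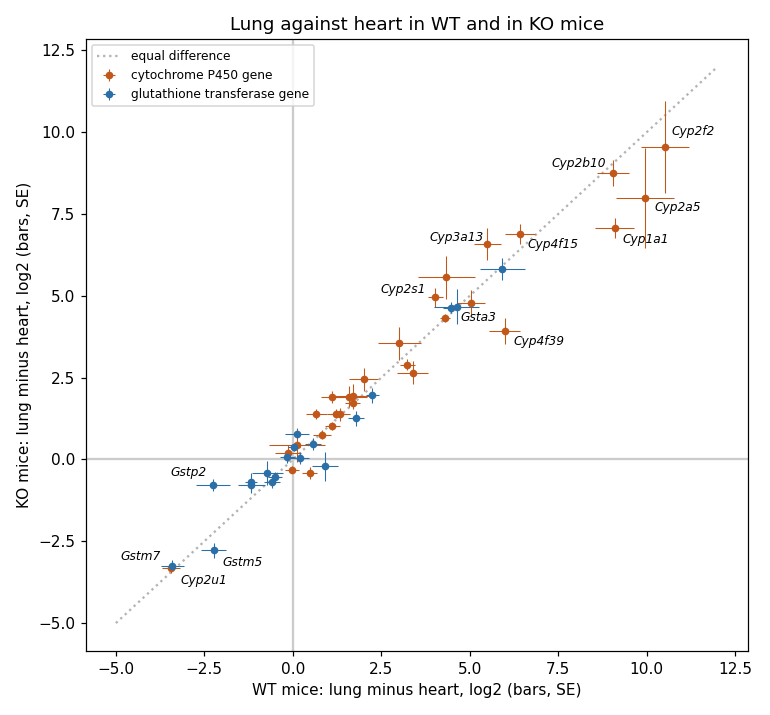
Difference between lung and heart (log2, with SE bars) of each gene tested in both genotypes, in WT mice (horizontal axis) and KO mice (vertical axis); points on the dotted line have equal differences. Most P450 genes (orange) lie on the side higher in lung, up to 10.52 for Cyp2f2 in WT mice, while transferase genes (blue) lie on both sides, down to −3.41 for Gstm7.

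Cyp2e1 varied widely between libraries of a group, with SDs of 0.643 to 1.789 in the 4 groups. It was at 9.19, 7.94 and 8.32 in WT lungs and 9.22, 10.36 and 8.84 in the KO lungs, and at 9.42, 9.36 and 6.29 in the WT hearts and 9.96, 8.03 and 9.11 in the KO hearts. Groups overlapped in both tissues. Ucp1, the uncoupling protein of brown fat, stood at 11.6, 9.2 and 4.6 in the same WT hearts and 11.8, 7.6 and 10.05 in the KO hearts. The summed level of the 3 brown adipocyte markers ran from 8.89 to 12.13 in the WT hearts, 9.46 to 12.3 in the KO hearts, 6.11 to 9.42 in the WT lungs and 6.8 to 10.88 in the KO lungs. Among the hearts, WT replicate 3 was lowest in Cyp2e1, in Ucp1 and in Elovl3, while Cidea, the other marker, was lowest in WT replicate 2 (8.76, against 8.81 in WT replicate 3). Among the lungs, KO replicate 2 was highest in Cyp2e1 and in each of the 3 markers. The part of adjacent fat in the Cyp2e1 values was not tested.

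**Figure D4:**
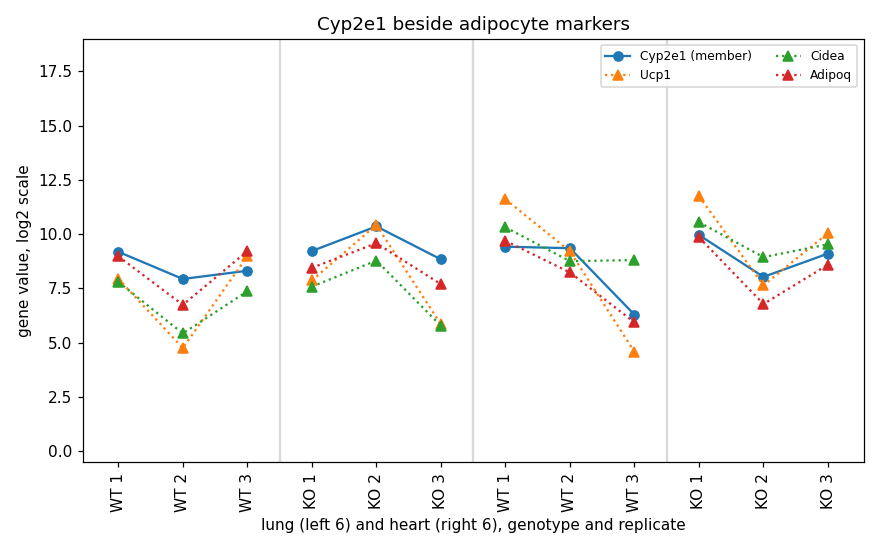
Gene values (log2 scale) of Cyp2e1 (circles) and of the adipocyte markers Ucp1, Cidea and Adipoq (triangles) in each library; lines only join the libraries of a group and replicates have no order. Cyp2e1 is lowest in heart WT replicate 3, at 6.29, where Ucp1 is at 4.6, and highest in lung KO replicate 2, at 10.36, where Ucp1 is at 10.4.

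Promoters of the lung P450s were read from RefSeq (GRCm38.p6) for 93 of the 118 members. The 250 bases before the start of Cyp2f2 (chr7:27119705-27119954), Cyp1a1 (chr9:57697363-57697612), Cyp2a5 (chr7:26835089-26835338) and Gsta3 (chr1:21240335-21240584), all on the + strand, are shown. Cyp2f2 and Cyp2a5 had the largest tissue differences in WT mice and Cyp1a1 is receptor-inducible. Gsta3 was the alpha class member with the highest level in WT lung. Capitals mark GCGTG (the core to which the aryl hydrocarbon receptor binds), TGACNNNGC (the core of the antioxidant response element) and, for the TATA box, TATAAA.
Cyp2f2: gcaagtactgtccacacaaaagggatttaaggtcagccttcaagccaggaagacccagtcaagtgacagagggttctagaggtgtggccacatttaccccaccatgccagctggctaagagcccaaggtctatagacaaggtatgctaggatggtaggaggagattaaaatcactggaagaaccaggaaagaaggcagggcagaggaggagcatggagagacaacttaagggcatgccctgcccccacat
Cyp1a1: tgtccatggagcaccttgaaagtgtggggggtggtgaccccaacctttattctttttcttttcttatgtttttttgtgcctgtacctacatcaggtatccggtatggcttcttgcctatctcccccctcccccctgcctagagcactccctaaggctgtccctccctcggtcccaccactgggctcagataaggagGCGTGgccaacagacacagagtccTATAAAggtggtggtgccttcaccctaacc
Cyp2a5: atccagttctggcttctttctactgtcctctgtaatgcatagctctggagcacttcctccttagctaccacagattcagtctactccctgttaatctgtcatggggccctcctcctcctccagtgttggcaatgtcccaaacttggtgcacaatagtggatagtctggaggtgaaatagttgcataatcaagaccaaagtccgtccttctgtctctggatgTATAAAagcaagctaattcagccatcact
Gsta3: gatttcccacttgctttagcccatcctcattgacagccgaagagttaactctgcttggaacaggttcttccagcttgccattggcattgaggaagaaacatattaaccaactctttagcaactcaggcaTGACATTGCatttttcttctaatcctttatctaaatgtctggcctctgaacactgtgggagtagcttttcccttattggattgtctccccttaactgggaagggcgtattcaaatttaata
In Cyp1a1 a GCGTG began 54 bases and a TATAAA 30 bases before the start. Cyp2a5 had a TATAAA 29 bases before it, Gsta3 a TGACNNNGC match 121 bases before it, and Cyp2f2 none of these letters. Searched on both strands, GCGTG was found in 35.0% of the 20 members called higher in lung that had a promoter, in 21.5% of all 93 members and in 30.9% of all 27025 genes. TGACNNNGC was found in 2 of these 20 members, in 6.5% of the 93 and in 11.5% of all genes, and TATAAA in 20.0%, 32.3% and 14.3%. A match is only a match of letters in this window.

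Whether loss of Adam19 changed these genes was tested in each tissue. In lung 51 members were tested and 0 passed, by limma and also by limma-voom, beside 11 of 16551 genes (0.0665%). At an unadjusted p under 0.05, 6 members were higher in KO lung, against 3.15% of all genes, and 1 was lower, against 2.77%. The 3 KO lungs lay above the 3 WT lungs for 10 members, against 6.41% of genes, and below them for 1, against 6.4%. The difference was above 0 for 35 members and below 0 for 16, with a median of 0.17 beside 0.01 over all genes tested.

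Cyp2a5 had the smallest p among the members in lung. It was at 10.99, 11.21 and 10.98 in WT lungs and 12.02, 13.56 and 12.03 in the KO lungs, which did not overlap. The difference was 1.48 ± 0.37 (95% interval 0.63 to 2.33), with an unadjusted p of 0.0035 and an adjusted p of 0.78. Without lung KO replicate 2 the difference was 0.97. Cyp2a4 is 98.2% identical over 1739 nucleotides but was low (3.03 to 4.49), and the summed copies differed by 1.47, with an exact permutation p of 0.10, the smallest that 3 against 3 can give. Club cell markers had higher means in the same libraries, and none of the 5 passed the test. Muc5b was at 9.2, 8.9 and 9.9 in WT lungs and 10.4, 11.5 and 10.9 in the KO lungs, and Scgb3a2 differed by 0.87 ± 0.20 (adjusted p = 0.73). The summed level of all 5 markers, 17.41 to 18.18 in WT and 18.21 to 18.5 in KO lungs, was mostly Scgb1a1. Scgb1a1 itself overlapped, at 18.12 in WT replicate 2 and 18.11 in KO replicate 1. Bpifa1 also overlapped, while Scgb3a1, Scgb3a2 and Muc5b did not. The part of club cell RNA in the Cyp2a5 values was not tested. Cyp2f2 differed by 0.37 ± 0.19 (adjusted p = 0.84), with the WT lungs at 14.61 to 14.96 and the KO lungs at 14.96 to 15.37.

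The other members with small p in lung were spread over roles. Cyp4f13 was at 7.67, 8.14 and 7.79 in WT lungs and 8.54, 8.71 and 8.36 in the KO lungs (0.67 ± 0.19, adjusted p = 0.81). Gstm2 differed by 0.40 ± 0.16 and Cyp2s1 by 0.47 ± 0.20. Gstp2 was at 6.96, 7.67 and 5.57 against 7.71, 8.11 and 8.10, a difference of 1.24 ± 0.46 that was 0.66 without lung WT replicate 3 and 0.23 for the summed pi class copies. Gstm1 behaved alike, with 0.73 ± 0.34 in full and 0.29 without that library. Cyp4b1 and Gsta4 differed by 0.13 ± 0.15 and −0.01 ± 0.23, with 95% intervals of −0.21 to 0.47 and −0.53 to 0.51.

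In heart 38 members were tested and 0 passed, again by both tools, beside 13 of 15303 genes (0.085%). At an unadjusted p under 0.05, 1 member was higher in KO heart (4.76% of all genes) and 1 lower (2.69%). The KO hearts lay above the WT hearts for 3 members (7.82%) and below them for 0 (5.23%). Cyp1b1, an estrogen and retinol hydroxylase of mesenchymal cells, was at 7.87, 8.22 and 7.70 in the WT hearts and 8.94, 8.36 and 8.92 in the KO hearts (0.81 ± 0.21, unadjusted p = 0.0043, adjusted p = 0.48). Smooth muscle markers moved with it, all 5 with higher means in KO hearts and none past the test. Their summed level, 15.46 to 15.9 in WT and 15.84 to 16.02 in KO hearts, was mostly Des, which heart muscle also makes. The other 4 did not overlap between genotypes, with Tagln at 10.29, 10.04 and 9.79 in the WT hearts and 11.66, 10.82 and 11.78 in the KO hearts, and Myh11 at 11.17 to 11.71 and 11.97 to 12.41. The part of smooth muscle RNA in the Cyp1b1 values was not tested. Cyp26b1 was at 8.56, 6.76 and 8.25 against 6.85, 7.27 and 6.03 (−1.14 ± 0.48, adjusted p = 0.65), and its groups overlapped. Cyp27a1, Gstm4 and Gstt2 differed by 0.30 ± 0.13, −0.41 ± 0.20 and 0.48 ± 0.25.

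**Figure D5:**
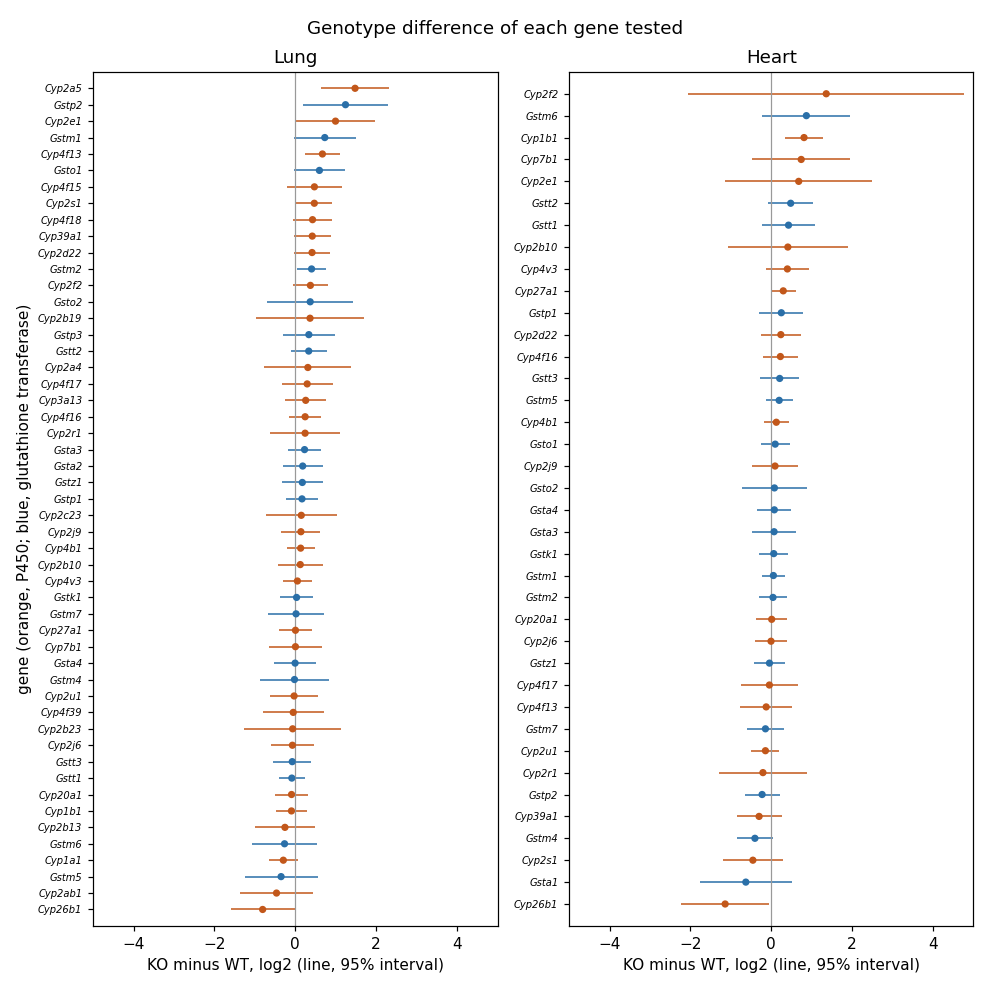
Difference between KO and WT (log2, points, with 95% intervals) of each P450 (orange) and transferase (blue) gene tested in lung (left, 51 genes) and heart (right, 38 genes). Most intervals cross 0, and none of the genes passed the test adjusted over all genes.

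The genotype difference in lung was set against that in heart over 17666 genes, 53 of them members. None of the members passed (0 by limma and by limma-voom, beside 0.00566% of all genes), and 6 had an unadjusted p under 0.05, against 7.88%. The smallest were Cyp4f39 and Cyp1b1. Cyp4f39 was listed at 0 in the 3 WT hearts and at 1.34, 2.04 and 2.66 in the KO hearts, with 5.60 to 6.61 in all lungs (adjusted p = 0.52). Cyp1b1 gave −0.90 ± 0.27 (adjusted p = 0.52), from −0.10 ± 0.17 in lung and 0.81 ± 0.21 in heart. Cyp1a1 gave −2.01 ± 0.67, with its hearts near the lower end of the scale. WT hearts 2 and 3, unlike WT heart 1, had fewer total estimated counts than any KO heart. The part of this depth in the low heart values of Cyp4f39 and Cyp1a1 was not tested.

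Partner genes of these enzymes were read from lists outside the name rule, and their counts stand beside 29.7% of all genes higher in lung and 20.5% lower in WT mice, and 30.9% and 22.3% in KO mice. Of 9 electron transfer genes, 6 were higher in lung and 2 lower in WT mice, and 6 and 3 in KO mice. P450 reductase (Por) was at 12.28, 12.34 and 11.73 in WT lungs and 9.91, 9.64 and 9.94 in the WT hearts, while ferredoxin Fdx2, a mitochondrial electron carrier, differed by −1.66 ± 0.29. Of 8 receptor and receptor target genes tested, 4 were higher and 2 lower in WT mice and 4 and 3 in KO mice, with WT differences of 3.20 ± 0.17 for the receptor Ahr and −3.86 ± 0.32 for its repressor Ahrr. Nqo1 and Aldh3a1, which like Cyp1a1 are known receptor targets, went opposite ways in WT mice (−2.73 ± 0.17 and 3.94 ± 0.33). Glutathione synthesis and recycling had 7 of 13 genes higher and 2 lower in WT mice, and 5 and 1 in KO mice. Of 20 other conjugating and transport genes, 14 were higher and 3 lower in WT mice, and 15 and 3 in KO mice. Soluble epoxide hydrolase Ephx2 was one of the lower genes (−5.11 ± 0.27 in WT mice). The 3 P450 genes without a family-letter name, Cyp51, Tbxas1 and Ptgis, were all higher in lung in both genotypes. No gene of these lists passed the genotype test in either tissue.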

How the data were processed

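Strand-specific total RNA libraries of whole lung and heart were made from 3 WT and 3 KO mice. The authors quantified reads against GENCODE transcripts of mm39 with Salmon, and the deposited values are on the log2 scale: transcripts as log2(1 + estimated count), and genes as the same with a constant per library, between −0.63 and 0.80, estimated here from genes with 1 transcript. How the authors set the constant is not given in the sources used here. Per the labels, cutadapt, STAR, Salmon and limma 3.42.2 were also among their tools.

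The members and gene lists were chosen with earlier results of these data known. Genes at 3.46 or more (about 10 estimated counts) in at least 3 libraries of a comparison were tested with limma 3.58.1 (R 4.3.3, trended variance) over all such genes, with Benjamini-Hochberg adjustment. Called genes had an adjusted p below 0.05, a 1.5-fold or larger change and, in the higher group, a mean of 6 or more. The number of replicates limits the precision, and p-values measure the spread between the mice of this series. Levels per kb were sums over transcripts of estimated count divided by length, scaled by the library constant, with lengths and coordinates from GENCODE vM39 (GRCm39, the assembly of mm39). Near-identical copies were found with blastn 2.17.0 at 95% identity or more over at least 500 nucleotides.

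The genes named were the markers Cyp2f2, Cyp4b1, Gsta4 and Gstm1, the 5 members with the smallest genotype p in each tissue, the 12 with the highest level per kb in WT lung and in WT heart, up to 10 in each direction with the largest tissue differences that were called and did not overlap in both genotypes, and near-identical copies of these. Other members were named after their values were seen.

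Lung and heart of a replicate number come from the same mouse, by the mouse identifiers in the labels. Their deviations from the group means correlated at −0.07 to 0.14 over 17666 genes. The tissue comparisons were fitted without the mouse, and with it as an alternative. WT and KO mice of the same number are different animals and were not paired. The alternatives were other filters, no variance trend, limma-voom, summed transcripts, another pseudocount, centring, 1 model over all libraries, summed copies and leaving out each library.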

Additional observations from a re-analysis of the deposited data

How the results depend on the processing

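The counts of 0 members called in lung, in heart and for the difference between tissues held under every alternative run, leaving out each library included (0 to 0). Leaving out 1 library gave 20 to 23 members higher and 5 to 7 lower in lung in WT mice, and 24 to 25 and 5 to 8 in KO mice. With the mouse as a replicate block the tissue counts were 22 and 6 in WT and 24 and 7 in KO mice and the interaction count was 0, so the block changed none of these counts. A filter of 10 estimated counts in every library left 13 of 31 members higher in lung in WT and 15 of 33 in KO mice. Over all genes it left 4176 of 13242 and 4418 of 13516. The member counts fell because genes near 0 in heart, such as Cyp2f2 and Cyp1a1, were then not tested. Centring each library removed a shift of 0.30 in WT and 0.28 in KO mice from the median of all genes. Gene by gene the tissue calls changed most often for genes near a threshold: Gstp1 passed in WT mice under 7 alternatives, Gstm4 was lost without any 1 of the WT hearts (adjusted p = 0.051 to 0.068), and Gsto1 in KO mice was lost under 6. Small differences turned sign. Leaving out 1 library gave −0.19 to 0.23 for Gsta4 in lung by genotype, and between WT tissues −0.11 to 0.55 for Gstm1, −0.075 to 0.18 for Gstm2, −0.11 to 0.11 for Cyp27a1, −0.051 to 0.34 for Gstt2 and −0.91 to 0.66 for Cyp2e1. Between KO tissues it gave −0.14 to 0.16 for Gstt2, −0.085 to 0.20 for Gstz1 and −0.06 to 0.90 for Cyp2e1. Centring gave −0.078 for Gstm1, −0.16 for Gstm2 and −0.067 for Cyp2e1 in WT mice, and −0.094 for Gstt2 and −0.076 for Gstz1 in KO mice, and summed transcripts gave −0.16 for Gstt2 and −0.084 for Gstz1 in KO mice. The cause of these turns was not tested. With 3 libraries a group, differences of low genes in heart, where an estimated count of 1 moves the value, are the least precise.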
